A study of Mus musculus with 2 samples.

Results

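The 9 genes described here encode the transcription factors *Foxp3* and *Ikzf2* (Helios), the interleukin-2 receptor alpha chain *Il2ra* (CD25), the CD28-family receptors *Ctla4* and *Icos*, the folate receptor-like surface protein *Izumo1r* (FR4), and 3 costimulatory receptors of the tumor necrosis factor receptor (TNFR) superfamily, *Tnfrsf4* (OX40), *Tnfrsf9* (4-1BB) and *Tnfrsf18* (GITR). They were taken by name, with earlier results of these data known, as 9 of the 17232 genes of the deposited table, and all 9 were measured. The cells were tumor-infiltrating immune cells (TIIs), sorted as live DAPI-CD45.2+ cells, from subcutaneous tumors of B16-OVA, a mouse melanoma line engineered to express ovalbumin as its antigen. TIIs of 10 tumors were combined per genotype and 10000 sorted cells per genotype were loaded for single-cell RNA sequencing (scRNAseq), 1 library from *Maoa* wild-type (WT) mice and 1 library from *Maoa* knockout (KO) mice. The *Maoa* KO mice carry 129S-*Maoa* tm1Shih/J, a hypomorphic mutant of the monoamine oxidase A gene, crossed back to C57BL/6J, and the methods name young adult females as the default for all mouse experiments. No drug was given, and both groups carried the same tumor line.

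With 1 library per genotype there was no replicate, so no test between the genotypes was possible, and differences between the mice, the pools and the libraries cannot be told apart. The intervals given below are 95% intervals that cover counting error only. The libraries held 2392 cells (labelled WT) and 2630 cells (labelled KO), with 28801253 and 23702018 unique molecular identifiers (UMIs, which count captured RNA molecules) and medians of 9887.5 and 6945.5 UMIs per cell. *Maoa* itself had 7 UMIs in the library labelled WT and 15 in the library labelled KO, which is 0.243 (0.0977 to 0.501) and 0.633 (0.354 to 1.04) counts per 1000000 UMIs (CPM). The allele is hypomorphic, which means that it lowers the gene's function and need not remove its transcripts. These counts do not bear out the genotype labels, nor do they show an exchange of them, and the libraries are therefore named by their labels throughout. A total of 13 barcode sequences occurred in both libraries.

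Regulatory T cells restrain other lymphocytes and depend on *Foxp3*, the factor that sets their program, while *Ikzf2* marks and stabilises many of them. They take up interleukin-2 through the high-affinity receptor that CD25 completes, and they use CTLA-4 to compete with CD28 for CD80 and CD86 on antigen-presenting cells. OX40, 4-1BB and GITR are TNFR-superfamily receptors of activated T cells that signal through TRAF adaptors to NF-kB, and regulatory T cells in tumors are known to carry them. Each is engaged by 1 TNF-superfamily ligand on antigen-presenting cells, *Tnfsf4*, *Tnfsf9* and *Tnfsf18*, and ICOS is engaged by *Icosl*.

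All 9 genes are protein coding. In GENCODE M21 (build GRCm38, matched by symbol) *Tnfrsf4* (chr4:156013843-156016612) and *Tnfrsf18* (chr4:156026164-156028895) are neighbours on the plus strand with 9551 bases between them, and *Tnfrsf9* (chr4:150914562-150946102) is 5.07 Mb away on the same chromosome. *Ctla4* (chr1:60887000-60915832) and *Icos* (chr1:60977927-61000320) are 62.1 kb apart, and *Ikzf2* (chr1:69531214-69687245) is on the minus strand of the same chromosome. *Il2ra* is at chr2:11642807-11693193, *Izumo1r* at chr9:14885814-14903949 on the minus strand, and *Foxp3* at chrX:7573644-7595245, 9.02 Mb from *Maoa*.

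Promoter windows from RefSeq (GRCm38.p6, 250 bases before to 50 after a transcript start) were matched by symbol for 7 of the 9 genes. Those of the 3 TNFR genes are shown because these genes varied together from cell to cell, as described below. The windows were searched on both strands for a 10-base NF-kB motif, an NFAT motif (GGAAAA), an AP-1 motif (TGANTCA), a forkhead motif (TGTTTAC) and a CRE motif (TGACGTCA), and matches are in capitals. The lines give *Tnfrsf4* (chr4:156013445-156013744), *Tnfrsf18* (chr4:156026072-156026371) and the second window of *Tnfrsf9* (chr4:150927749-150928048), all on the plus strand:
Tnfrsf4: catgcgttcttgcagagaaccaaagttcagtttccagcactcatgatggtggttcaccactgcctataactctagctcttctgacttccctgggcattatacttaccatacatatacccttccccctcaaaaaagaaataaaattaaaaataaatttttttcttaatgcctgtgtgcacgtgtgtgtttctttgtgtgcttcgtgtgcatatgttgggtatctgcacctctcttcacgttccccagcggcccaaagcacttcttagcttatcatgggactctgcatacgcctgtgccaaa
Tnfrsf18: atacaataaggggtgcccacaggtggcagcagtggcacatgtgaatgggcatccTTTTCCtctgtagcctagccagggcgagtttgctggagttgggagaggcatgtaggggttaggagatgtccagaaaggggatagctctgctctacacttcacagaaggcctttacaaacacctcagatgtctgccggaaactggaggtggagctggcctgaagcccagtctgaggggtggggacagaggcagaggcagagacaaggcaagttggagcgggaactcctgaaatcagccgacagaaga
Tnfrsf9: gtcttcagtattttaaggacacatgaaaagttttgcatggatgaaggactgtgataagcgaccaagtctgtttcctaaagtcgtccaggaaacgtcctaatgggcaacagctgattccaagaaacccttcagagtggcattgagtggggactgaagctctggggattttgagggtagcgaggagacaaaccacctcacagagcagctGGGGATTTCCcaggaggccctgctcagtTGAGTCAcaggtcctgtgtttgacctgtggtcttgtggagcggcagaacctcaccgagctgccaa
This *Tnfrsf9* window holds 1 NF-kB match and 1 AP-1 match (its other window, which is not shown, holds 1 NFAT match), the *Tnfrsf18* window 1 NFAT match, and the *Tnfrsf4* window no match of these 5 motifs. Of all 32851 promoter windows, 1.63% held the NF-kB motif, 7.81% the AP-1 motif, 23.4% the NFAT motif, 3.65% the forkhead motif and 1.79% the CRE motif. These are matches of letters in a window and no measure of binding.

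Cells were clustered without the 9 genes (592 variable genes), and the 14 clusters were named from marker lists, except cluster 12, which stayed unnamed. Cells with at least 3 UMIs of the CD3 genes and at least 5 UMIs of 8 myeloid genes (289 and 174 cells, here and below in the order WT and KO) were set apart. T cells were then split by their UMIs into Foxp3-positive cells (at least 1 *Foxp3* UMI), CD8 T cells (*Cd8a* or *Cd8b1* and no *Cd4*), CD4 T cells (*Cd4* and no *Cd8a* or *Cd8b1*) and other T cells. The Foxp3-positive class held 106 and 88 cells with 1122082 and 851155 UMIs, the CD4 class 52 and 83 cells, the CD8 class 642 and 641 cells, the natural killer (NK) class 189 and 270 cells, and the class of tumor-associated macrophages and monocytes (TAM/Mono) 823 and 766 cells. Because *Foxp3* defines the first class, its level there is a description and no finding.

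Foxp3-positive cells were 11.3% (9.31 to 13.4, Clopper-Pearson) of 942 T cells in the library labelled WT and 8.12% (6.56 to 9.91) of 1084 in the library labelled KO. After thinning each cell to 3000 UMIs the shares were 6.90% and 5.97%, and their intervals overlapped. Relative to Foxp3-positive and CD4 T cells together, they made up 67.1% (59.2 to 74.3) and 51.5% (43.7 to 59.2), and 56.5% and 46.3% after thinning. Before thinning, 55 and 30 of the Foxp3-positive cells held *Cd8a* or *Cd8b1* UMIs, while the CD4 class leaves out such cells. The shares thus set unlike gates beside each other, and would be lower with such cells left out of both classes. By cluster, the share of T cells was 36.1% (29.5 to 43.1) and 25% (19.8 to 30.8) in cluster 4, but 10.4% (6.55 to 15.5) and 19.8% (12.4 to 29.2) in the cycling cluster 7, where the library labelled KO was the higher. Cluster 0, in which 1.46% and 0.362% of T cells were Foxp3-positive, held 206 and 552 of the T cells. A *Foxp3* UMI was also seen in 1.59% and 1.11% of NK cells (median depth 4885 and 3977 UMIs) and in 1.09% and 0.914% of TAM/Mono cells (median depth 9795 and 8543.5 UMIs), against a median depth of 9019 and 4715 UMIs in Foxp3-negative T cells. The share in T cells was thus above the level in cells that should lack the gene.

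By the transcripts of the CD4 and CD8 coreceptors the class was mixed. In the library labelled WT 37 Foxp3-positive cells had *Cd4* UMIs alone, 25 had *Cd8a* or *Cd8b1* UMIs alone, 30 had both and 14 had neither. The library labelled KO held 37, 14, 16 and 21 such cells. *Cd8b1* UMIs were also found in 21.0% and 8.49% of TAM/Mono cells, compared with 42.5% and 31.8% of Foxp3-positive cells. A single *Foxp3* UMI put 43 and 28 cells in the class, 2 UMIs 22 and 18 cells, and 3 or more UMIs 41 and 42 cells, with at most 12 and 8 UMIs in any cell. The number of cells at 3 or more UMIs was thus nearly equal between the libraries, and the excess of the library labelled WT was in cells with 1 or 2 UMIs. Most Foxp3-positive cells, 74 and 64, were in cluster 4, whose leading genes include *Foxp3*, *Cd4* and *Izumo1r*. Cluster 7, led by cell cycle genes such as *Ube2c*, *Top2a* and *Birc5*, held 21 and 19, cluster 2, led by *Cxcr6*, *Lag3* and *Cd8a*, held 8 and 3, and cluster 0, led by *Dapl1*, *Tcf7* and *Lef1*, held 3 and 2. The 21 and 19 cells of cluster 7 were few but deep, and carried 431108 and 344171 of the UMIs of the class.

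*Ikzf2* was higher in Foxp3-positive than in CD4 T cells by a like factor in both libraries. In Foxp3-positive cells it was at 601 CPM (95% Poisson interval 556 to 648) and 693 CPM (638 to 751), against 120 and 145 CPM in CD4 T cells and 70.2 and 98.4 CPM in CD8 T cells. The ratio to CD4 T cells was 4.95-fold and 4.76-fold. At 3000 UMIs per cell 77.4% and 80.5% of Foxp3-positive cells had an *Ikzf2* UMI, compared with 17.3% and 17.9% of CD4 T cells and 14.3% and 11.9% of NK cells. Among the Foxp3-negative T and NK classes, the other T cells stood nearest to Foxp3-positive cells, at 146 and 289 CPM and with 21.1% and 44.4% of cells positive at that depth. TAM/Mono cells held 28 and 32 *Ikzf2* UMIs in all.

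*Il2ra* had 76 and 90 UMIs in Foxp3-positive cells. It stood at 67.7 CPM (53.4 to 84.8) and 106 CPM (85.0 to 130), while CD4 T cells had only 2 and 10 UMIs, 7.04 and 21.0 CPM. CD8 T cells were at 21.1 and 12.9 CPM and NK cells at 17.1 and 24.1 CPM. The other chains of the receptor spread more widely. *Il2rb*, the beta chain, was at 276 and 277 CPM in Foxp3-positive cells, 165 and 145 CPM in CD4 T cells and 455 and 439 CPM in NK cells. *Il2rg*, the common gamma chain, was at 228 and 270.2 CPM in Foxp3-positive cells and 324 and 283 CPM in CD4 T cells.

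The CD28-family pair differed in how it followed *Foxp3*. *Ctla4* was at 352 CPM (318 to 389) and 359.5 CPM (320.4 to 402) in Foxp3-positive cells and at 123 and 73.4 CPM in CD4 T cells, ratios of 2.82-fold and 4.83-fold. *Icos* was at 222 CPM (195 to 251) and 223 CPM (193 to 257) against 201 and 136 CPM in CD4 T cells. The *Icos* log2 ratio to CD4 T cells was 0.14 (-0.27 to 0.59) in the library labelled WT, an interval that includes equal levels, and 0.70 (0.30 to 1.14) in the library labelled KO. Both genes were low in CD8 T cells, at 59.3 and 37.5 CPM for *Ctla4* and 35.6 and 31.5 CPM for *Icos*. In NK cells *Ctla4* was at 19.6 and 4.83 CPM and *Icos* at 17.9 and 12.9 CPM.

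*Izumo1r* was highest in Foxp3-positive cells and was also found in CD4 T cells and in the other T cells, which held UMIs of neither or both coreceptors. It was at 218 CPM (192 to 247) and 242 CPM (210.1 to 277) in Foxp3-positive cells and at 109 and 117 CPM in CD4 T cells, ratios of 1.97-fold and 2.05-fold that stand just below and just above 2-fold. In these other T cells it was at 82.1 and 46.6 CPM, and within cluster 4 at 184 and 103 CPM, beside 116 and 99.002 CPM in CD4 T cells of that cluster. The CD8 level was 17.9 and 21.8 CPM, and the NK level 10.2 and 4.83 CPM.

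The TNFR genes reached beyond Foxp3-positive cells in different ways. *Tnfrsf4* was at 1288 CPM (1222 to 1356) and 1331 CPM (1255 to 1411) in Foxp3-positive cells, with 806 and 245 CPM in CD4 T cells, 251 and 178 CPM in CD8 T cells and 30.7 and 12.9 CPM in NK cells. A *Tnfrsf4* UMI was held by 95.3% and 96.6% of Foxp3-positive cells (median depth 7305.5 and 6941.5 UMIs), 51.9% and 26.8% of CD8 T cells and 9.52% and 5.56% of NK cells, beside 13.9% and 8.09% of the deeper TAM/Mono cells. The NK shares were thus no higher than those of the deeper macrophages and monocytes. Per UMI, *Tnfrsf4* stood higher in NK cells (30.7 and 12.9 CPM) than in TAM/Mono cells (13.9 and 8.24 CPM). *Tnfrsf9* was at 760.2 CPM (710.03 to 813) and 799 CPM (739.99 to 861) in Foxp3-positive cells, 229 and 136 CPM in CD4 T cells, 555 and 335 CPM in CD8 T cells, and 473 and 280 CPM in NK cells. CD8 and NK cells were thus closer to Foxp3-positive cells in *Tnfrsf9* than CD4 T cells were, in both libraries. *Tnfrsf18* was at 867 CPM (814 to 923) and 1099 CPM (1029 to 1171), and reached 542 and 373 CPM in CD4 T cells, 301 and 245 CPM in CD8 T cells and 289 and 375 CPM in NK cells. In TAM/Mono cells the 3 genes were at 13.9 and 8.24 CPM (*Tnfrsf4*), 29.6 and 13.1 CPM (*Tnfrsf9*) and 19.2 and 15.7 CPM (*Tnfrsf18*).

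**Figure D1:**
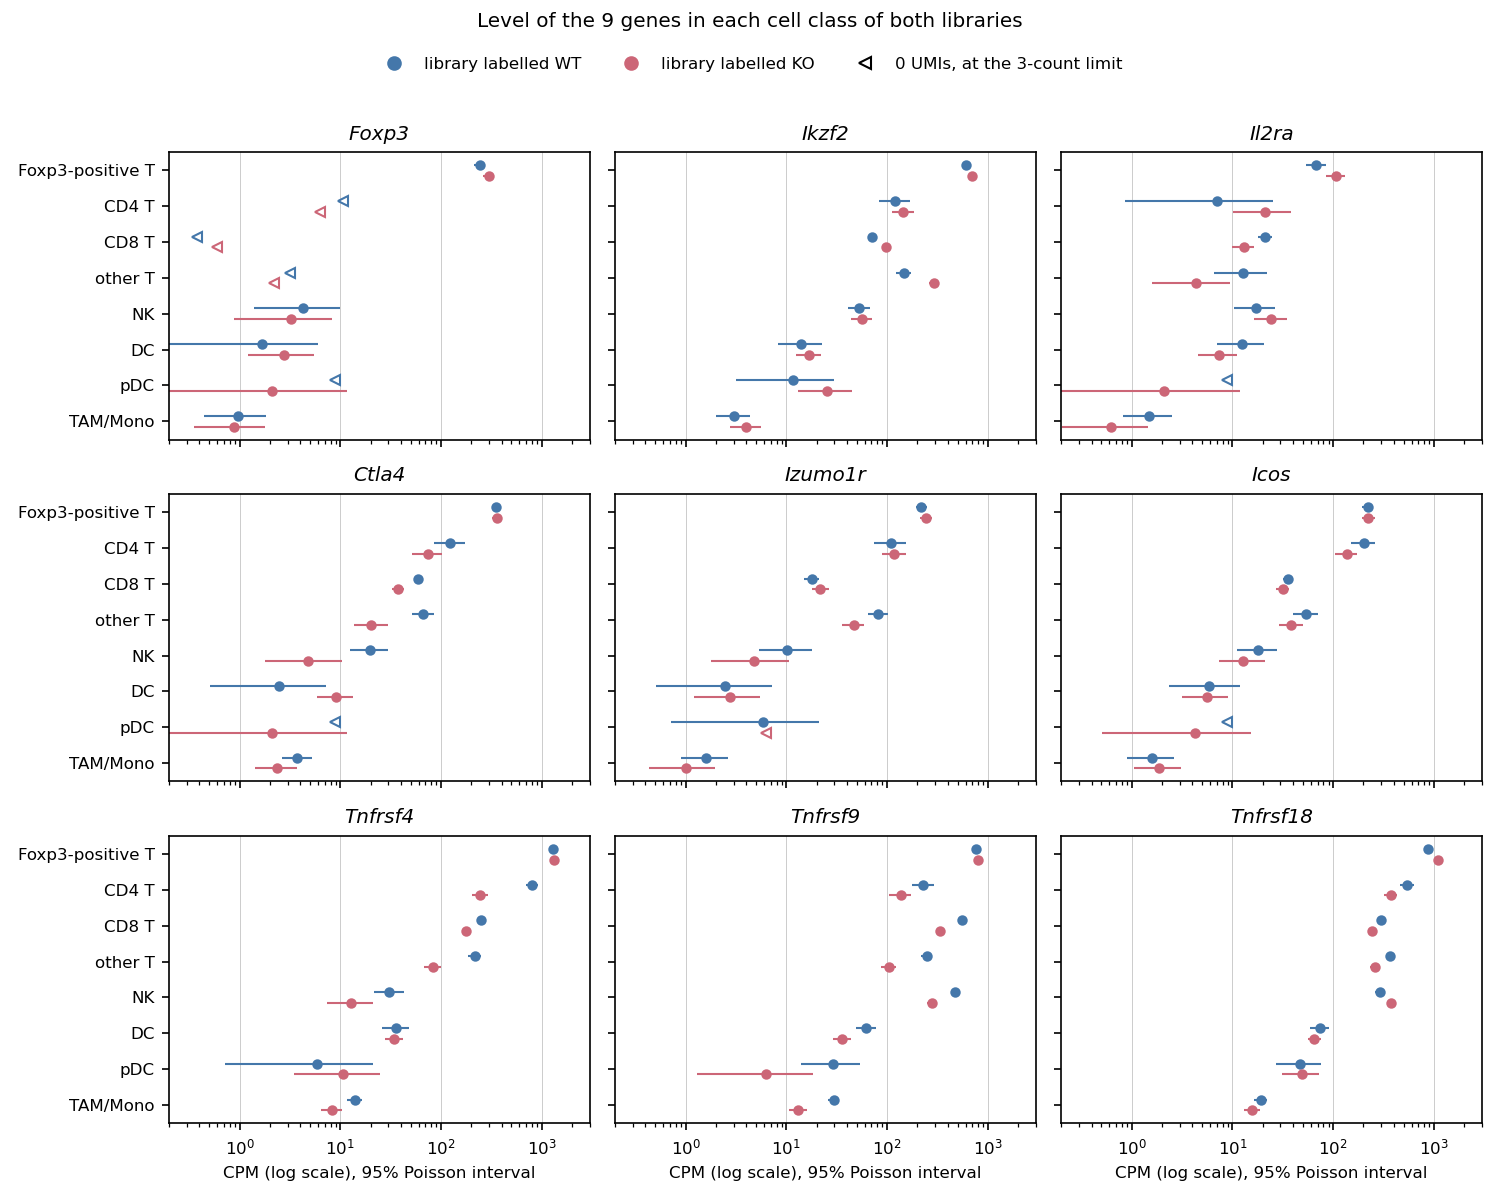
Level of each of the 9 genes (CPM, log axis) in 8 classes of cells, with blue points for the library labelled WT, red points for the library labelled KO and lines for 95% Poisson intervals, cut off at the left edge of the axis; open triangles mark 0 UMIs, drawn at the limit of 3 counts. Each gene is highest in Foxp3-positive T cells (*Foxp3* by definition), *Tnfrsf9* and *Tnfrsf18* lie between 245 and 555 CPM in CD8 T and NK cells of both libraries, and every gene is at 29.6 CPM or less in TAM/Mono cells.

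A gene was counted as higher where its CPM was at least 2-fold higher in both libraries on their own, with 0.5 UMIs added, and the same rule was applied to all genes with at least 50 UMIs. Against CD4 T cells, 4 of the 8 genes other than *Foxp3* met it (*Ikzf2*, *Il2ra*, *Ctla4* and *Tnfrsf9*), where 2.33% of 5110 genes did. The count was 7 with the mean of per-cell CPM (4.07% of genes) and 7 against all Foxp3-negative T cells (2.78% of genes). Their median log2 ratio was 1.24 and 2.26, beside 0.15 and 0.066 over all genes. *Izumo1r*, *Icos*, *Tnfrsf4* and *Tnfrsf18* missed the 2-fold line in the library labelled WT, and *Icos* missed it in both. The gap between libraries was widest for *Tnfrsf4*, at 1.59-fold in the library labelled WT and 5.40-fold in the library labelled KO, and it was the CD4 level that differed. A single CD4 T cell of the library labelled WT carried 74 of its 229 *Tnfrsf4* UMIs. Without that cell, a choice made after the values were seen, the WT ratio was 2.26-fold for *Tnfrsf4* and 2.03-fold for *Izumo1r*, and 6 of the 8 genes were 2-fold higher in both libraries (2.37% of genes).

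Against CD8 T cells 7 of the 8 genes were higher (background 3.08% of 9063 genes), with *Izumo1r* at 12.2-fold and 11.1-fold and *Tnfrsf9* the exception at 1.37-fold and 2.39-fold. Against NK cells 7 of 8 were higher (6.79% of 6406 genes), again without *Tnfrsf9* (1.61-fold and 2.85-fold). All 8 were higher than in TAM/Mono cells (14.4% of 9617 genes) and than in dendritic cells (DCs; 11.6% of 7246 genes). No gene of the set was 2-fold lower in both libraries in Foxp3-positive cells than in any of these classes, while 1.21% of all genes were against CD4 T, 1.6% against CD8 T, 4.11% against NK, 14.9% against TAM/Mono cells and 11.4% against DCs. Against NK cells the ratios ran from *Ctla4*, *Izumo1r* and *Tnfrsf4*, which were 17.6-fold or more higher in each library, through *Icos* (12.1-fold and 16.9-fold), *Ikzf2* (11.3-fold and 12.2-fold) and *Il2ra* (3.89-fold and 4.33-fold), down to *Tnfrsf18* at 3.0-fold and 2.93-fold and *Tnfrsf9*. The order differed against other classes, as *Il2ra* (7.75-fold) and *Ikzf2* (4.95-fold) led against CD4 T cells in the library labelled WT.

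The levels depended on the cluster. In Foxp3-positive cells of cluster 4, *Ikzf2* was at 938 and 992 CPM, *Tnfrsf4* at 2053 and 1503 CPM, *Tnfrsf18* at 1220 and 1272 CPM and *Ctla4* at 534 and 422 CPM, all above the values over the whole class. In cycling Foxp3-positive cells (cluster 7) *Ikzf2* was at 353 and 392 CPM, *Izumo1r* at 83.5 and 151 CPM and *Ctla4* at 209 and 325 CPM. Per UMI, 7 of the 8 genes other than *Foxp3* were lower in cycling than in noncycling Foxp3-positive cells of both libraries, as were 34.9% of 3921 genes. *Il2ra* was the exception, at 94.3 and 92.4 CPM in cluster 4 and 51.0 and 125 CPM in cluster 7. Cycling cells had more UMIs in all (median 20448 and 16858, against 5639 and 5406 in cluster 4), so a lower CPM there does not mean fewer molecules per cell.

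Within CD8 T cells the TNFR genes were low in cluster 0 and higher in clusters 2 and 7. *Tnfrsf9* was at 27.5 and 26.9 CPM in cluster 0, 731 and 571 CPM in cluster 2 and 490.1 and 511 CPM in cluster 7. *Tnfrsf4* was at 13.8 and 11.5 CPM in cluster 0 and at 323 and 304 CPM in cluster 2. *Tnfrsf18* varied less, at 189.9 and 129.5 CPM in cluster 0 and 348 and 363 CPM in cluster 2. *Tnfrsf9* in CD8 T cells of cluster 2 thus came near its level over all Foxp3-positive cells in the library labelled WT, which *Tnfrsf4* did not in either library.

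**Figure D2:**
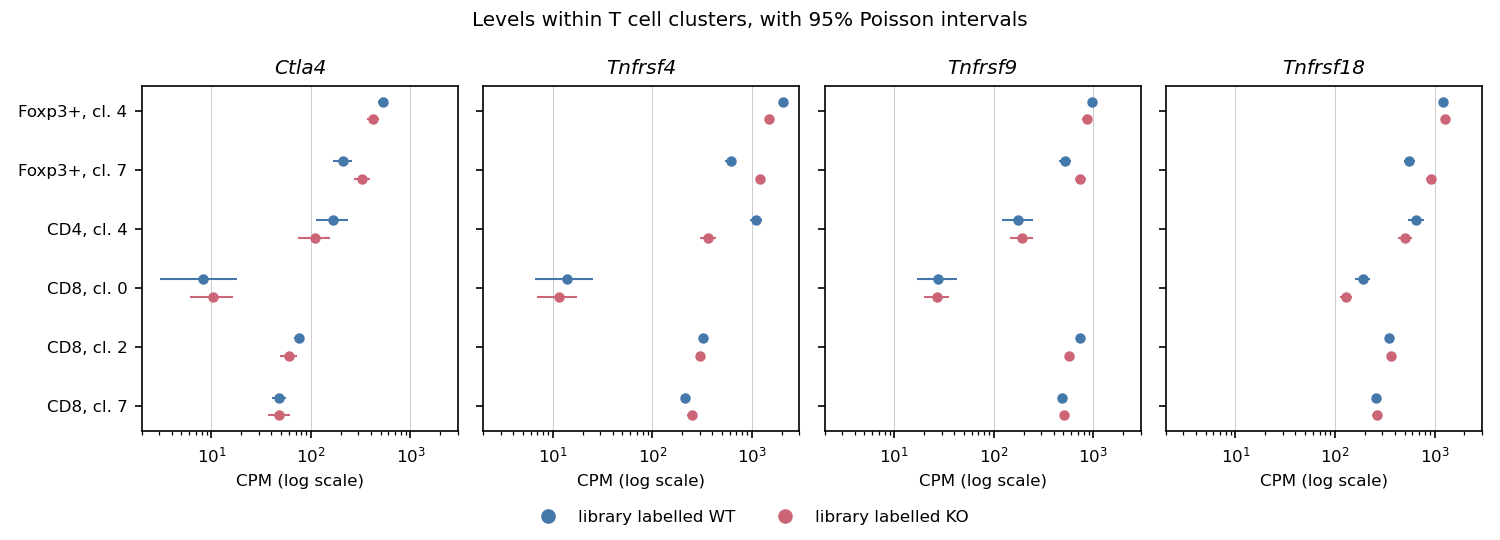
Levels of *Ctla4*, *Tnfrsf4*, *Tnfrsf9* and *Tnfrsf18* (CPM, log axis) in Foxp3-positive, CD4 and CD8 T cells within clusters (cl.), with points for each library and lines for 95% Poisson intervals. Cluster 0 of CD8 T cells is the lowest for every gene shown, and Foxp3-positive cells of cluster 7 are higher in the library labelled KO for each of the 4 genes while those of cluster 4 are lower for *Ctla4* and *Tnfrsf4*.

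Most Foxp3-positive cells held several of the genes at once. At 3000 UMIs per cell the median Foxp3-positive cell had UMIs of 5 of the 8 other genes in both libraries. At least 5 were found in 64.2% of 106 and 67.8% of 87 Foxp3-positive cells, in 17.3% and 7.69% of CD4 T cells, in 2.80% and 1.90% of CD8 T cells and in 0.529% and 0.383% of NK cells. A total of 5 and 4 Foxp3-positive cells held all 8, and 2 and 1 held none.

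**Figure D3:**
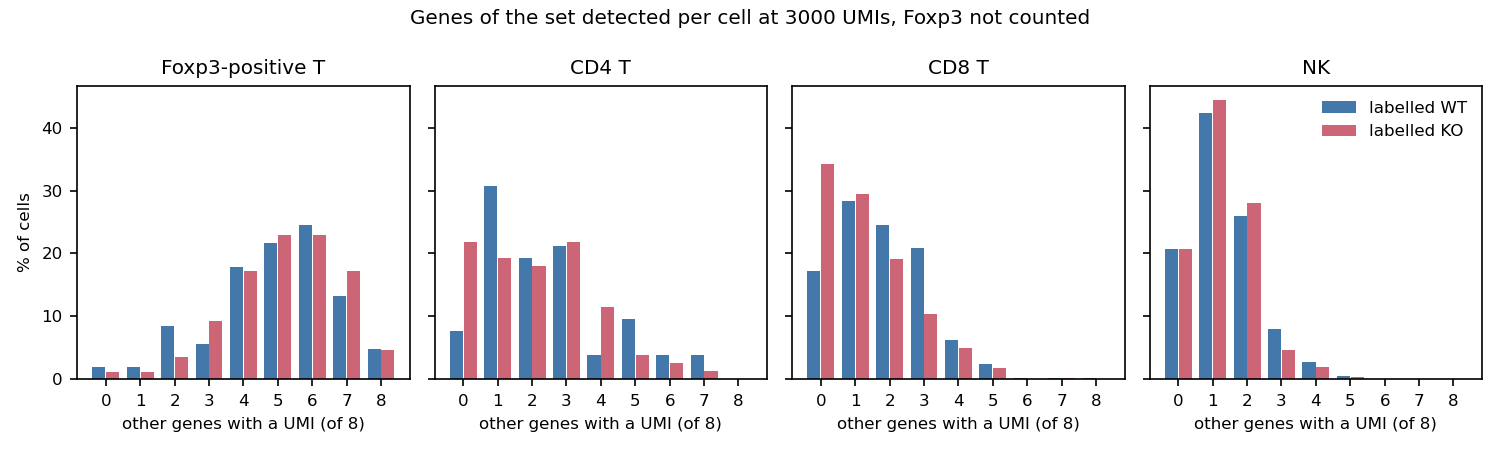
Share of cells (%) by the number of the 8 genes other than *Foxp3* with at least 1 UMI, after thinning to 3000 UMIs per cell, in 4 classes and both libraries. Foxp3-positive T cells peak at 5 or 6 genes, CD4 T cells spread from 0 to 7, and CD8 T and NK cells peak at 0 or 1.

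Across Foxp3-positive cells the genes were weakly related, with Spearman's rho from 0.025 to 0.66 over the 36 pairs in 106 cells of the library labelled WT and from -0.0035 to 0.52 in 87 cells of the library labelled KO, on the thinned counts. Only 3 pairs were above 0.3 in both libraries, and all 3 joined TNFR genes. *Tnfrsf4* and *Tnfrsf18*, the neighbours on chromosome 4, had the highest value in each library (0.66 and 0.52). The other pairs above 0.3 in both were *Tnfrsf4* with *Tnfrsf9* (0.43 and 0.38) and *Tnfrsf9* with *Tnfrsf18* (0.40 and 0.38). *Ctla4* and *Icos*, the neighbours on chromosome 1, had 0.41 and 0.29. The cells of a library share its depth and its free RNA, and the values are descriptions.

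Summed over all Foxp3-positive cells, the set differed little between the libraries, while the sign of several ratios depended on the cells taken. None of the 9 genes passed 2-fold, where 2.01% of 4170 genes did, and the median KO-to-WT log2 ratio was 0.11 over the 8 genes other than *Foxp3*, beside 0.0036 over all genes. The interval of the ratio was above 0 for 4 genes (background 7.12% of genes) and below 0 for none (6.91%). These were *Foxp3* itself at 0.31 (0.058 to 0.56), which the class was gated on, *Ikzf2* at 0.21 (0.045 to 0.37), *Il2ra* at 0.64 (0.19 to 1.10) and *Tnfrsf18* at 0.34 (0.21 to 0.47). *Ctla4*, *Icos*, *Tnfrsf4* and *Tnfrsf9* lay between 0.0094 and 0.072, with intervals on both sides of 0. *Izumo1r* was at 0.15 (-0.13 to 0.42). Several of these ratios depended on how cells were chosen or counted. *Ikzf2* was at -0.098 with at least 2 *Foxp3* UMIs required and -0.041 without the cells holding *Cd8a* or *Cd8b1* UMIs. *Tnfrsf18* was at -0.013 with each cell thinned to 3000 UMIs and at 0.069 (-0.086 to 0.22) with at least 2 *Foxp3* UMIs. *Il2ra* was at 0.13 with the mean of per-cell CPM, 0.25 (-0.35 to 0.84) without the cycling cluster, 0.35 (-0.19 to 0.91) with at least 2 *Foxp3* UMIs and 0.38 (-0.26 to 1.04) without the cells holding *Cd8a* or *Cd8b1* UMIs. *Tnfrsf4* was at -0.35 (-0.48 to -0.22) and *Icos* at -0.33 (-0.66 to -0.014) with at least 2 *Foxp3* UMIs, and *Tnfrsf4* at -0.28 (-0.42 to -0.14) without the cycling cluster. At 3000 UMIs per cell *Tnfrsf4* was at -0.43 (-0.65 to -0.21), *Tnfrsf9* at -0.44 (-0.74 to -0.14) and *Ctla4* at -0.45 (-0.88 to -0.024), and the median over the set was -0.34.

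Between the main clusters of the class, *Tnfrsf4* and *Ctla4* had ratios of opposite sign, a difference that was not tested. In cluster 4, *Tnfrsf4* was lower in the library labelled KO, with a log2 ratio of -0.45 (-0.59 to -0.31), as was *Ctla4* at -0.34 (-0.61 to -0.071), and no gene of the set had an interval above 0 (background 7.08%), with 2 of 9 below 0 (background 7.72%). In cluster 7, 6 of 9 had an interval above 0 (background 8.21%), led by *Il2ra* at 1.28 (0.52 to 2.10), *Tnfrsf4* at 0.99 (0.77 to 1.22), *Izumo1r* at 0.85 (0.21 to 1.51) and *Tnfrsf18* at 0.73 (0.48 to 0.98). *Il2ra* was the 1 gene of the set past 2-fold there (background 2.62%). *Tnfrsf4* thus stood at 612 and 1217 CPM among cycling cells and 2053 and 1503 CPM among noncycling cells. Only 21 and 19 cells underlie the cycling values, and the spread from cell to cell is not in these intervals.

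The difference between libraries also varied with the number of *Foxp3* UMIs. Among cells with 1 UMI, 5 of 8 genes had an interval above 0 (background 9.21%), among cells with 2 UMIs 6 of 8 had one below 0 (15.1%), and with 3 or more UMIs 1 of 9 lay above (6.66%) and 1 below (8.71%). Among cells with 1 *Foxp3* UMI, *Tnfrsf4* was at 779 and 1393 CPM and *Ikzf2* at 460.1 and 795 CPM, while among cells with 2 UMIs *Tnfrsf4* was at 1623 and 936 CPM and *Ikzf2* at 878 and 679 CPM. With 3 or more UMIs, *Tnfrsf4* was at 1689 and 1459.6 CPM and *Ikzf2* at 644 and 653 CPM. *Tnfrsf18* was lower in the library labelled KO at 2 UMIs, at 1053 and 756 CPM with a log2 ratio of -0.48 (-0.81 to -0.15), and higher at 3 or more, at 1033 and 1221 CPM with a log2 ratio of 0.24 (0.063 to 0.42). The cells with 1 *Foxp3* UMI also differed otherwise, since 28 of 43 in the library labelled WT and 9 of 28 in the library labelled KO held *Cd8a* or *Cd8b1* UMIs, and their median depth was 8955 and 5217.5 UMIs. The part of either in these ratios was not tested.

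In CD4 T cells 5 genes of the set were lower in the library labelled KO. Among the 7 members of the set that reached 50 UMIs, 5 had an interval below 0 (background 8.33% of 1849 genes) and none above it (9.9%). *Tnfrsf4* passed 2-fold (background 4.16%), at 806 CPM (705 to 918) and 245 CPM (203 to 294), a log2 ratio of -1.71 (-2.05 to -1.39). *Ctla4* was at -0.75, *Tnfrsf9* at -0.75, *Icos* at -0.56 and *Tnfrsf18* at -0.54, and the upper ends of the *Ctla4* and *Icos* intervals were close to 0 (-0.028 and -0.018). *Ikzf2* (0.26) and *Izumo1r* (0.096) had intervals on both sides of 0. The 8 myeloid genes stood at 172 CPM in CD4 T cells of the library labelled WT and 678 CPM in those of the library labelled KO, and their part in these ratios was not tested. Within cluster 4, which held 35 and 60 of the CD4 T cells, the *Tnfrsf4* ratio was -1.60 (-1.96 to -1.26) and that of *Tnfrsf9* 0.10 (-0.54 to 0.79), and 2 of 7 genes had an interval below 0 (background 8.1%). Without the CD4 T cell that carried 74 *Tnfrsf4* UMIs, the ratio over the class was -1.21 (-1.57 to -0.85) for *Tnfrsf4*, and *Tnfrsf9* at -0.48 (-1.03 to 0.074) and *Icos* at -0.43 (-0.98 to 0.14) had intervals on both sides of 0.

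CD8 T cells also had lower levels in the library labelled KO, with 5 of 8 intervals below 0, but 24.3% of all 8729 genes shared that direction and 10.5% had the opposite one. The ratios were -0.73 for *Tnfrsf9*, -0.70 for *Il2ra*, -0.66 for *Ctla4*, -0.50 for *Tnfrsf4* and -0.30 for *Tnfrsf18*, and *Ikzf2* was higher at 0.49 (0.31 to 0.67). The clusters that made up the class differed, since cluster 0 held 120 and 331 of the CD8 T cells and cluster 2 held 311 and 169. With both libraries set to 1 mix of clusters, *Tnfrsf4* was at -0.036, *Tnfrsf18* at -0.097, *Tnfrsf9* at -0.22, *Il2ra* at -0.24 and *Ctla4* at -0.29, and *Ikzf2* at 0.63. On 1 mix the ratios of *Tnfrsf4* and *Tnfrsf18* were thus near 0, while that of *Ikzf2* was larger than before. In NK cells *Tnfrsf9* was at -0.76 (-0.95 to -0.56), *Tnfrsf4* at -1.23 (-2.20 to -0.37) from 36 and 16 UMIs, and *Tnfrsf18* at 0.38 (0.17 to 0.58), where 8.69% of 4476 genes had an interval below 0, 8.02% above it and 2.86% a ratio past 2-fold. In the other T cells 5 of 7 genes had an interval below 0 (background 12.5% of 4271 genes), 1 above it (8.08%) and 3 a ratio past 2-fold (4.19%). These were *Ctla4* at -1.69, *Tnfrsf4* at -1.38 and *Tnfrsf9* at -1.25, and *Ikzf2* was higher at 0.98 (0.70 to 1.27). Cluster 0 held 72 of the 142 and 200 of the 272 other T cells. In TAM/Mono cells, where the genes were near 0, 2 of 5 also had an interval below 0 (background 13.9% of 9238 genes), *Tnfrsf9* at -1.17 and *Tnfrsf4* at -0.75, and *Tnfrsf9* passed 2-fold (3.54%). The *Tnfrsf4* and *Tnfrsf9* falls were thus also present in cells at 29.6 CPM or less, and the part of free RNA in the T cell ratios was not tested.

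**Figure D4:**
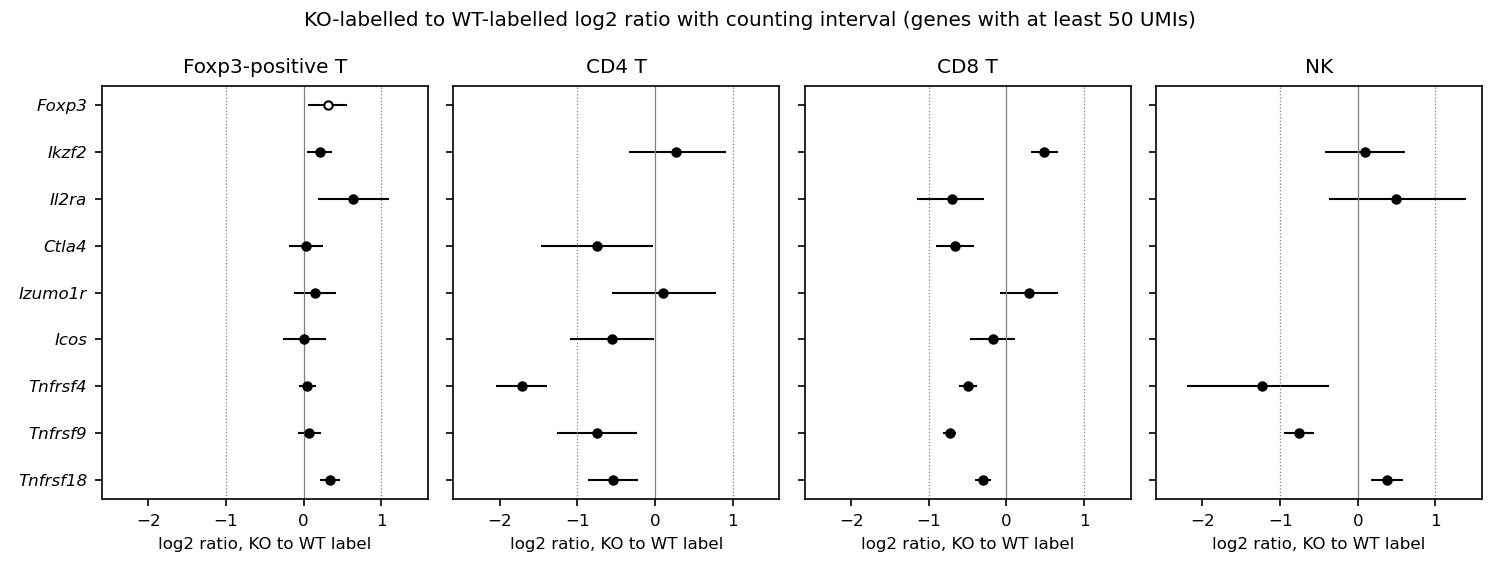
KO-to-WT log2 ratio of CPM for the 9 genes in 4 classes (points drawn from 50 UMIs up), with lines for 95% counting intervals, dotted lines at 2-fold and an open point for *Foxp3*, which defines its class. Foxp3-positive cells sit between 0 and 0.7, most CD4 and CD8 points lie below 0, and *Tnfrsf4* in CD4 T cells and in NK cells lies past 2-fold.

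Transcripts of the receptors' ligands differed widely in level between genes and classes. *Tnfsf9*, the 4-1BB ligand, was at 25.7 and 41.5 CPM in DCs and 20.2 and 19.2 CPM in TAM/Mono cells, against 9.80 and 16.4 CPM in Foxp3-positive cells. *Icosl* was at 67.1 and 49.2 CPM in DCs and 11.1 CPM in TAM/Mono cells of both libraries. *Cd86*, bound by CTLA-4, was at 155 and 122 CPM in TAM/Mono cells and 140.0 and 111 CPM in DCs. The OX40 ligand *Tnfsf4* had 53 and 54 UMIs in CD8 T cells, 5 and 10 in DCs and 4 and 0 in TAM/Mono cells, and the GITR ligand *Tnfsf18* had 2 and 2 in TAM/Mono cells. *Il2* was at 45.8 (24.4 to 78.2) and 35.7 (20.8 to 57.1) CPM in CD4 T cells and 8.02 (3.67 to 15.2) and 19.97 (11.6 to 32.0) CPM in Foxp3-positive cells. Only *Il2* among the 10 ligands reached 50 UMIs in both classes together, and it was not 2-fold lower in both libraries.

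Other genes of the pathways were counted by the same rule against CD4 T cells (background 2.33% higher and 1.21% lower). Of 19 further regulatory T cell genes with enough UMIs, 5 were higher and 0 lower, namely *Klrg1*, an inhibitory lectin receptor (170 and 134 CPM against 7.04 and 31.5), *Itgae*, the CD103 integrin chain (31.2 and 37.6 against 3.52 and 4.20), *Entpd1*, the ectonucleotidase CD39 (35.6 and 34.1 against 10.6 and 12.6), *Ikzf4*, the Ikaros-family factor Eos (27.6 and 31.7 against 10.6 and 2.10), and *Capg*, an actin-capping protein (864 and 922 against 380 and 350). The median of that list was 0.59 and 0.87, and *Nrp1* was lower in level in both libraries (34.8 and 25.8 against 59.8 and 39.9 CPM) without passing 2-fold. Of 6 further TNFR-superfamily genes 2 were higher, *Tnfrsf1b*, which encodes TNFR2 (131 and 123 against 63.4 and 21.0 CPM), and *Cd27* (290 and 251 against 130 and 124 CPM). *Cd40lg*, the CD40 ligand kept in this list, was lower (0.891 and 3.52 against 59.8 and 88.1 CPM).

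Among 12 TRAF and NF-kB genes, *Nfkb2* (92.7 and 107 against 38.7 and 50.4 CPM) and *Rel* (45.5 and 43.5 against 10.6 and 18.9 CPM), both subunits of NF-kB dimers, were higher and 0 were lower. Of 10 genes of interleukin-2 receptor signalling 0 were higher and only *Bcl2*, an inhibitor of apoptosis, was lower (49.0 and 31.7 against 331 and 132 CPM). *Cd28* and *Pdcd1* did not pass in either direction. Among 10 conventional CD4 and naive T cell genes 6 were lower, with *Tcf7* at 5.35 and 10.6 against 95.03 and 81.8 CPM and *Klf2* at 38.3 and 15.3 against 405 and 103 CPM. The CD8 effector list held 4 higher genes of 10, of which *Cd8a* and *Cd8b1* are fixed by the gate. *Gzmb*, the cytotoxic protease granzyme B, was at 618 and 758 against 183 and 92.3 CPM, and *Lag3*, an inhibitory receptor, at 268 and 229 against 81.0 and 21.0 CPM. The Foxp3-positive class kept 55 and 30 cells with *Cd8a* or *Cd8b1* UMIs, while the CD4 gate left such cells out. These cells held 697867 and 380680 UMIs of the class, and their part in the *Gzmb* and *Lag3* ratios was not tested. Between the libraries, no gene of the regulatory T cell, TNFR, CD28-family, interleukin-2 or NF-kB lists passed 2-fold in Foxp3-positive cells among those with at least 50 UMIs. In the other lists, 1 of 7 conventional CD4 and naive genes was 2-fold lower in the library labelled KO (*Klf2*, 38.3 and 15.3 CPM) and 2 of 10 CD8 effector genes (*Cd8a*, 209 and 86.9 CPM, and *Gzmk*, 38.3 and 17.6 CPM), where 1.39% of genes were.

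By the smaller of the 2 ratios, the 10 genes outside the set that stood highest over CD4 T cells began with *Cd8b1* and *Cd8a*, which the CD4 gate sets to 0, and went on with *Rln3* (33 and 32 UMIs in Foxp3-positive cells against 0 and 1), *Ccl4*, *Ccl3*, *Itgae*, *Sv2c*, *Tfrc*, *Snx9* and *Klrg1*. *Ccl4*, a chemokine made by activated T cells, was at 526 and 535 CPM against 45.8 and 31.5 CPM. *Tfrc*, the transferrin receptor, was at 37.4 and 35.2 CPM against 3.52 and 6.29 CPM. Foxp3-positive cells with *Cd8a* or *Cd8b1* UMIs were kept in this ranking, while the CD4 class leaves out such cells. Their part in the ranking was not tested. Over 16 points (8 classes in 2 libraries) the genes whose level was most like the summed level of the set were *Def6* and *Rhof* (Pearson r 0.97 for both), *Cd2*, *Dkkl1* and *Cers4* (0.95 to 0.96), out of 11141 genes. The points share libraries and T cells, and no test was made of them.

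The largest library differences in Foxp3-positive cells were in genes outside the set. Lowest in the library labelled KO were *Gdpd3* (357 and 5 UMIs), *S100a9* (53 and 1), *S100a8* (88 and 2), *Ctse* (95 and 4) and *Gm10093* (118 and 7), of which *S100a8* and *S100a9* are neutrophil and monocyte calprotectin genes. Highest were *Odc1*, the polyamine enzyme ornithine decarboxylase (125 and 642 UMIs), *Apobec3* (54 and 250), *Gpr55* (17 and 40), *Dync1h1* (16 and 36) and *Smim8* (17 and 37). The largest ratio among the 9 genes, that of *Il2ra*, was smaller than each of these.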

How the data were processed

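Per the submitters' processing notes, the reads were processed with Cell Ranger on mm10, with no version given in the sources used here. The values deposited by the authors are on a natural log scale, ln(1 + UMIs per 10000 UMIs of the cell), after the stated filters (minimum 300 UMIs and minimum 100 genes per cell, with a ceiling of 5% on mitochondrial UMIs). Whole UMIs were recovered from every value within 0.01 and summed over the cells of a class. Levels are CPM with exact Poisson intervals. Log2 ratios had 0.5 UMIs added and were made for genes with at least 50 UMIs. Cells were clustered in Seurat 5.3.0 (R 4.3.3; 13 principal components, resolution 0.8), without the 9 genes, and the rest was computed in Python 3.11.15 with numpy 2.4.6 and scipy 1.17.1. Intervals were also run on simulated Poisson counts. The true ratio was held by 95.8% of them for KO-labelled against WT-labelled Foxp3-positive cells. For Foxp3-positive against CD4 T cells of the library labelled WT it was 96.4%. Such counts have no spread from cell to cell, so they cannot show how the intervals hold for real cells. No doublet caller was run, and the cells with both CD3 and myeloid UMIs were set apart. With 1 library per genotype there was no test.

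The genes and lists were chosen with earlier results of these data known. Named beside the 9 genes are list genes past 2-fold in both libraries against CD4 T cells, with some further receptor chains, ligands and list genes named for their role after their values were seen, the 10 other genes highest over CD4 T cells, the 5 genes most like the set, and the 5 most extreme in each direction between libraries. In all, 14 alternatives were planned and 4 were added after the data were seen.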

Additional observations from a re-analysis of the deposited data

Results flagged for a closer look

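The ratio of KO-labelled to WT-labelled CPM had opposite signs in different T cell classes for a pair of genes, beyond the counting intervals. For *Il2ra* the log2 ratio was 0.64 in Foxp3-positive cells and -0.70 in CD8 T cells. In Foxp3-positive cells it was 0.13 with the mean of per-cell CPM and 0.25 (-0.35 to 0.84) without the cycling cluster. In CD8 T cells it was -0.24 with both libraries on 1 mix of clusters and 0.61 (-0.099 to 1.28) within cluster 7. For *Tnfrsf18* it was 0.34 in Foxp3-positive cells, -0.54 in CD4 T cells and -0.30 in CD8 T cells. It was -0.013 in Foxp3-positive cells with each cell thinned to 3000 UMIs and -0.097 in CD8 T cells on 1 mix of clusters. With 1 library per genotype, the difference between classes was not tested.

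*Foxp3* UMIs were also present in the cells with both CD3 and myeloid UMIs, which were in none of the classes compared in the main setting. They were seen in 24.9% of 289 such cells in the library labelled WT and in 31.0% of 174 in the library labelled KO (median depth 17436 and 16084 UMIs), above the 1.09% and 0.914% of TAM/Mono cells.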

How the results depend on the processing

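No paired analysis was possible because each genotype had 1 library, and no replicate could be left out. The share of T cells that were Foxp3-positive was 6.69% (WT) and 5.54% (KO) when 2 *Foxp3* UMIs were required, 6.90% and 5.97% at 3000 UMIs per cell, 5.75% and 5.50% with *Cd8a* or *Cd8b1* carriers left out, and 10.3% (KO) with the 9 genes kept in the clustering. The count of genes 2-fold higher than in CD4 T cells was 7 with the mean of per-cell CPM (background 4.07%), 7 against all Foxp3-negative T cells and 6 without 1 CD4 T cell rich in *Tnfrsf4*. The *Ikzf2* ratio between libraries in Foxp3-positive cells turned to -0.098 at 2 *Foxp3* UMIs and to -0.041 without *Cd8a* or *Cd8b1* carriers, and that of *Tnfrsf18* to -0.013 at 3000 UMIs per cell. The median ratio of the 8 genes between libraries, 0.11, was 0.24 with double-positive cells kept, -0.13 at 2 *Foxp3* UMIs, -0.34 at 3000 UMIs per cell, -0.0070 with the mean of per-cell CPM and -0.016 without the cycling cluster, so its sign is not settled. The cause was not tested. Of 1101 values of single genes under an alternative, 937 stayed within the counting interval of the main value and 161 left it. A further 3 changed sign from a main interval that excluded 0. Sign changes from a main interval that included 0 were not counted among these 3. Of 576 ratios of Foxp3-positive to CD4 or CD8 T cells, 573 were above 0.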

Other observations

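Outside T and NK cells, the TNFR genes and *Il2ra* were concentrated in the small cluster 11 of DCs, led by *Ccl22*, *Fscn1*, *Il4i1* and *Ccr7*, genes of mature migratory DCs (19 and 37 cells). There *Tnfrsf9* was at 245 and 209 CPM, *Tnfrsf18* at 203 and 219 CPM, *Tnfrsf4* at 112 and 212 CPM and *Il2ra* at 54.0 and 43.8 CPM. In DC cluster 8, led by *Cd209a*, they were at 16.6 and 6.92 CPM, 41.4 and 39.1 CPM, 16.6 and 4.48 CPM, and 2.07 and 1.22 CPM. The CD3 genes stood at 58.1 and 151 CPM in cluster 11, beside 53.8 and 50.05 CPM in cluster 8, and in the library labelled KO a single cell of cluster 11 carried 20 of 24 *Ctla4* UMIs, and a single cell 14 of 21 *Ikzf2* UMIs. The largest number in 1 cell was 8 of 27 and 21 of 87 UMIs for *Tnfrsf4*, and 29 of 59 and 23 of 86 for *Tnfrsf9*. Their part in the levels was not tested.

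*Ikzf2* was also found in Foxp3-negative T cells with a UMI of *Klra1*, *Klra6* or *Klra7*, receptors of the Ly49 family, a grouping chosen after the values were seen. It was at 124 and 311 CPM in these 111 and 206 cells, and at 72.6 and 101 CPM in the 725 and 790 cells without such a UMI. An *Ikzf2* UMI was held by 54.1% and 61.7% of the former (median depth 7911 and 4584 UMIs) and by 32.3% and 27.2% of the latter (9112 and 4769 UMIs), beside 3.40% and 3.79% of TAM/Mono cells.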
